A study of Mus musculus and Rattus norvegicus with 26 samples.

Results

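Motor genes were examined in 6 lists of intronic contigs, where a contig is a stretch of an intron covered by sequencing reads. A contig was taken when its gene symbol began with Kif (kinesins), Dync (cytoplasmic dyneins), Dnah (axonemal dynein heavy chains), Dctn (dynactin subunits), or Myo and a digit (unconventional myosins). The rule gave 1377 of 112345 contigs, in 1109 of 85860 listed introns and 87 of 13695 genes. Of the 87 genes, 40 were kinesins, 17 dyneins, 6 dynactin subunits and 24 myosins. Kifap3, an accessory subunit of kinesin-2 with no motor domain, is among the genes named Kif. Conventional myosins, whose symbols begin with Myh, are outside the rule.

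Kinesins and dyneins walk along microtubules and carry vesicles, mitochondria and RNA granules, while myosins move along actin filaments. Most kinesins move toward the plus ends of microtubules and cytoplasmic dynein 1 moves toward the minus ends, with dynactin linking dynein to its cargo. In neurons, members of the kinesin-1, kinesin-2 and kinesin-3 families, dynein 1 and myosin V carry cargo into dendrites and axons, whereas mitotic kinesins are best known from spindle assembly and the last steps of cell division. Axonemal dyneins drive the beat of cilia and sperm tails, and dynein 2 carries cargo within cilia.

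The study asked whether introns are kept in RNA outside the nucleus. By the labels there were 3 libraries of mouse dendrites and 3 of mouse somas, 2 of rat dendrites and 3 of rat somas, 6 of BAT (brown adipose tissue) cells and 9 of cardiomyocytes, and each of these conditions is pooled in a list. Neurons came from hippocampi of C57BL/6 mice and Sprague-Dawley rats at embryonic day 18 and were grown in culture, BAT cells from CD-1 mice at embryonic day 17.5, and cardiomyocytes from transgenic C57BL/6 mice at embryonic day 14.5 that carry the cell cycle probe mAG-hGem under the CMV promoter. All RNA went through 3 rounds of aRNA amplification. A dendrite library holds many dendrites dissected by hand, and by the study these can include some axon. The soma, BAT and cardiomyocyte libraries are single cells with their nucleus. For BAT and cardiomyocytes the study names a smaller number of cells than the labels, so which cells entered those lists is not known.

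Each list gives 1 read count for an intron, with the libraries of a condition added together. There is thus 1 value per condition and no replicate error, no test between conditions was possible, and differences are described by their size. Intervals are 95% intervals (Wilson for shares, exact for ratios of reads) that cover counting error only. Amplified reads are not independent molecules, so the intervals of ratios are too narrow even for that. The lists hold between 1007530 reads (rat dendrite) and 17858440 reads (BAT) in all, and these are sums over the lists and not the depth of the libraries. Where lists are compared, reads are scaled to 1000000 listed reads in each list and called scaled reads. Reads given without that word are counts in the list and are not comparable in size between lists of different total. In pooled libraries, fewer cells with a transcript and less transcript per cell cannot be told apart. By the methods of the study the libraries were not strand specific, so reads from a gene and from a transcript on the other strand cannot be told apart either.

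The sequences that carry the main results are shown here from the mouse genome build NCBIM37 (mm9), written 5′ to 3′ on the strand of the host gene. The motor intron with the most reads in any list was intron 16 of Kif1b in BAT, a kinesin-3 that carries mitochondria and synaptic vesicle precursors. Its contig, chr4:148621460-148621912, spanned 453 of the 470 bases of the intron, at 95060 reads. The ends of the intron lie at chr4:148621854-148621913 and chr4:148621444-148621503 on the minus strand, with the splice site bases in capitals.
Kif1b intron 16, first 60 bases: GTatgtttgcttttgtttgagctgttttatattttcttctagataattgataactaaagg
Kif1b intron 16, last 60 bases: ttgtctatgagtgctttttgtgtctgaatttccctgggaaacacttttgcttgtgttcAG

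The longest contigs of all motor genes lay in intron 30 of Myo3a, a myosin of the tips of actin protrusions in hair cells and photoreceptors. They were 3535, 3558, 3867 and 3678 nt long in mouse dendrites, mouse somas, BAT and cardiomyocytes. Each contained a stretch that matched the mitochondrial genome over 3260 aligned positions at 97.4% identity, with 72 mismatches. The stretch overlaps the annotated pseudogenes Gm13341, Gm13340 and Gm13339, which lie on the other strand. None of the other 1221 motor contigs of the mouse lists matched the mitochondrial genome, and among all contigs each mouse list had 2 that did, this contig included. A stretch of 100 bases is shown with the mismatches in capitals, from chr2:22442808-22442907 and, for the mitochondrial genome, chrM:7600-7699 on the minus strand.
Myo3a intron 30: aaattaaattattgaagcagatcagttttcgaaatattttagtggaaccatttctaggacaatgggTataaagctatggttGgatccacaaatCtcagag
mitochondrial genome: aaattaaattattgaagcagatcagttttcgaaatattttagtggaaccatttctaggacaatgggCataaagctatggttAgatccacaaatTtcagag

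The aRNA amplification starts from a poly(T) primer, and runs of adenine lie in the genome just downstream of contigs in several introns with many reads. The 5 examples, 1 for each of the genes with the most reads in such an intron, are the contigs in intron 60 of Dnahc7b (chr1:46397265-46398860, plus strand, 21960 reads in BAT), intron 1 of Myo1d (chr11:80545922-80546105, minus strand, 1 of 11 contigs of the intron, which had 2348 reads in BAT), intron 2 of Dync1li1 (chr9:114603718-114605172, plus strand, 1 of 2 contigs of the intron, which had 1276 reads in BAT), intron 64 of Dync1h1 (chr12:111897727-111898032, plus strand, 962 reads in mouse somas) and intron 6 of Myo9a (chr9:59639381-59639788, plus strand, 1 of 5 contigs of the intron, which had 947 reads in mouse somas). The run is in capitals and has 13, 21, 21, 21 and 16 adenines. It began 30, 10, 0, 2 and 0 nt behind the contig.
Dnahc7b intron 60: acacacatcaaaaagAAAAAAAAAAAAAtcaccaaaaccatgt
Myo1d intron 1: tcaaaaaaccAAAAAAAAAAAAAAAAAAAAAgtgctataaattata
Dync1li1 intron 2: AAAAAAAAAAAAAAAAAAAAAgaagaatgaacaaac
Dync1h1 intron 64: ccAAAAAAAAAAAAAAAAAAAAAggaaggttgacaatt
Myo9a intron 6: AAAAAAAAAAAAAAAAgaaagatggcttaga

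Most motor genes of the mouse annotation had a listed contig in dendrites and in BAT. Of 94 annotated protein-coding motor genes with introns, 72 were listed in mouse dendrites (76.6%, interval 67.1 to 84), 53 in mouse somas (56.4%, 46.3 to 66.0), 76 in BAT (80.9%, 71.7 to 87.5) and 53 in cardiomyocytes (56.4%, 46.3 to 66.0). Over all 19431 annotated genes with introns the shares were 43.9%, 30.1%, 51.9% and 31.6%. Motor genes are long, with a median of 26.5 introns and 52968 nt of intron sequence against 6 introns and 16958 nt over all genes. Among genes with at least 26773 nt of intron sequence, the lower quartile of the motor genes, the motor genes stood at 84.3%, 67.1%, 88.6% and 65.7% and all genes at 70.7%, 50.7%, 74.1% and 49.4%. The plot of the share of genes listed shows the smaller distance among long genes. The rat lists held 33 motor genes in dendrites and 24 in somas.

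**Figure D1:**
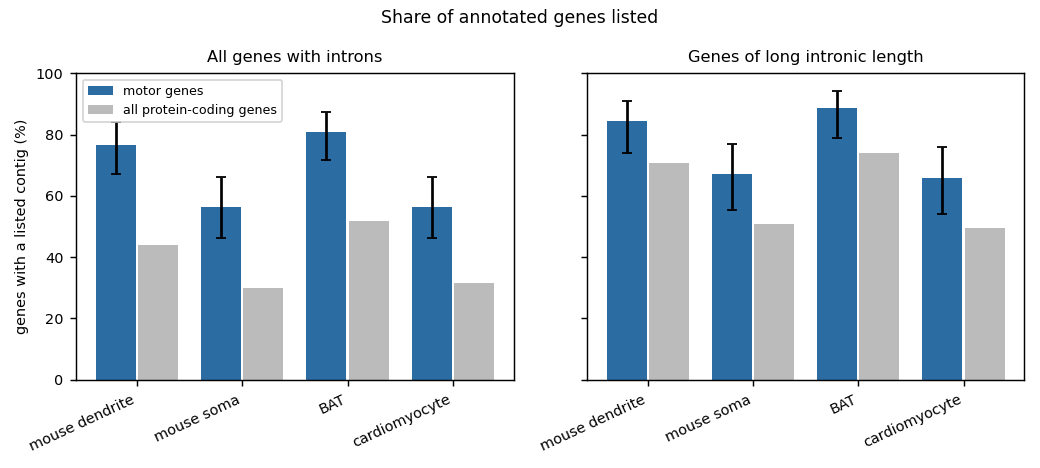
Share of annotated genes with a listed contig (%) in the 4 mouse lists, for motor genes (blue, with 95% Wilson intervals) and all protein-coding genes with introns (grey). The left panel takes all genes and the right panel genes with at least 26773 nt of intron sequence, where motor genes stood at 65.7 to 88.6% and all genes at 49.4 to 74.1%.

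The annotated motor genes absent from every mouse list were 9, namely Dctn1, Dctn2, Dnahc12, Dnahc14, Dnahc3, Dnahc7a, Dnahc7c, Kif12 and Myo15b. Dctn1 and Dctn2 were listed in rat. At the other end, 14 genes were listed in all 6 lists: the 3 kinesin-1 genes Kif5a, Kif5b and Kif5c, the kinesin-2 gene Kif3a, the kinesin-3 genes Kif1b, Kif13a and Kif16b, Kif27, the dynein heavy chains Dync1h1 and Dync2h1, and Myo1d, Myo1e, Myo5a and Myo9a. These are 16.1% of the motor genes listed, beside 6.24% of all 13695 genes. A total of 37 genes were in all 4 mouse lists (43.5%, beside 24.6% of all genes), and 7 genes were in 1 list only (8.05%, beside 25%). These shares do not account for the length of a gene or the number of its introns. Kif1a, the kinesin-3 of synaptic vesicle precursors, was one of those 7, with 7 reads in mouse somas.

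Motor genes held 33201 reads in mouse dendrites (1.08% of the listed reads), 16347 in mouse somas (0.881%), 9519 in rat dendrites (0.945%), 11268 in rat somas (0.538%), 261903 in BAT (1.47%) and 106657 in cardiomyocytes (0.874%). The median listed motor intron had only 15 to 32 reads, against 14 to 53 for all introns of the lists. The sums therefore rest on few introns, as the heatmap of reads by gene and the plot of the leading introns show.

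**Figure D2:**
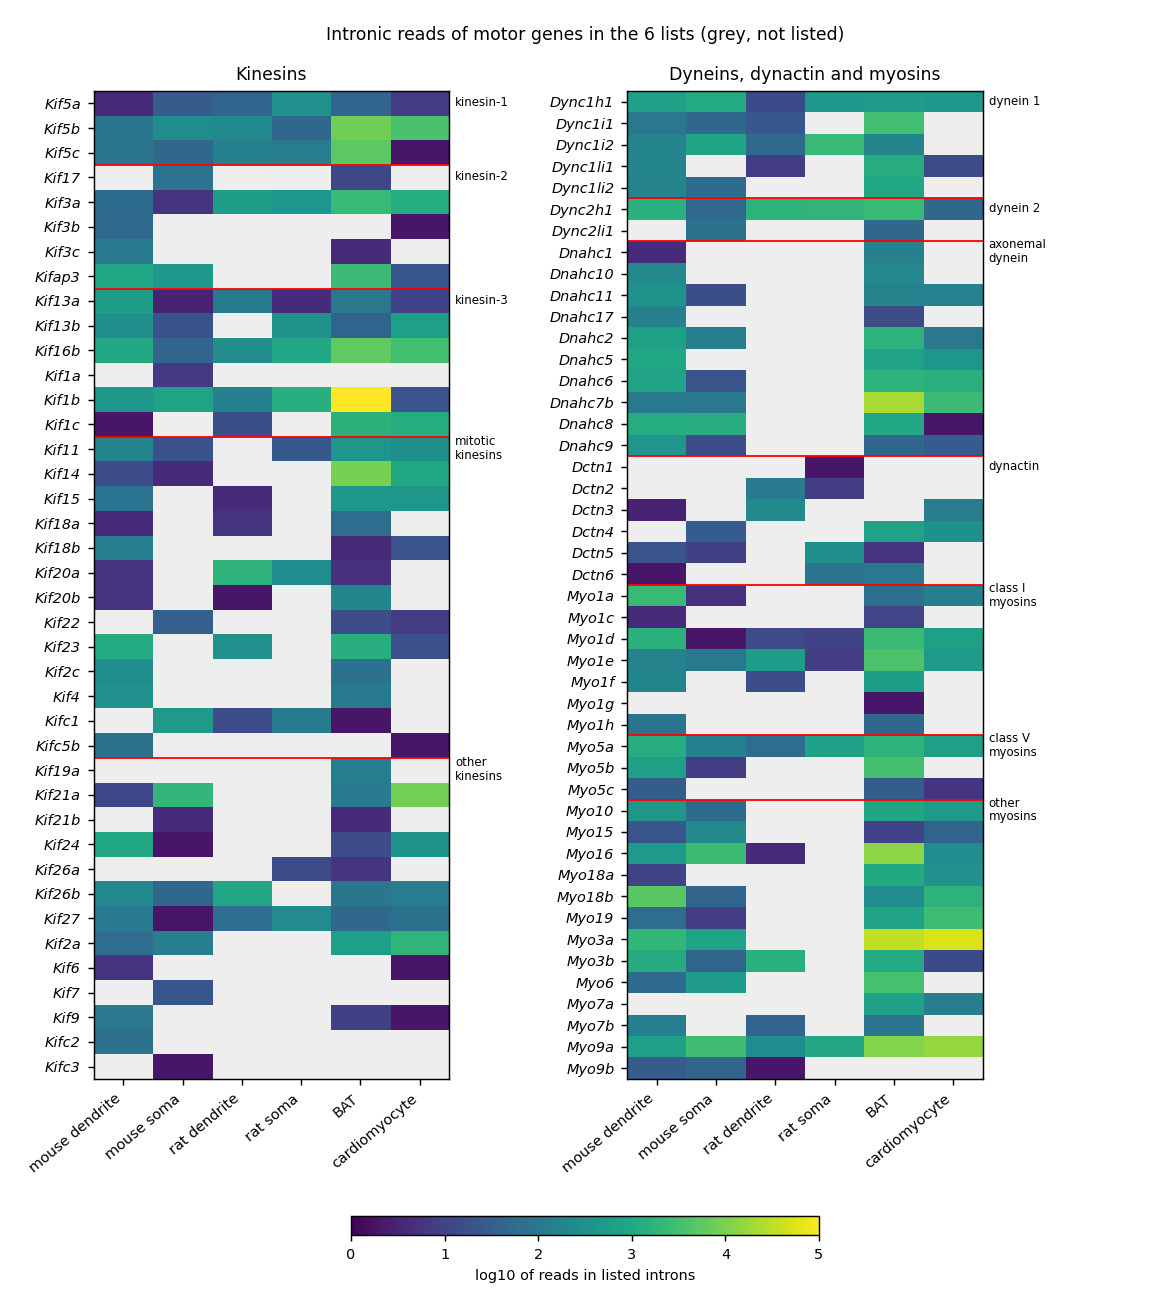
Reads in listed introns of the motor genes reported here (log10 scale, colour) in the 6 lists, kinesins on the left and dyneins, dynactin and myosins on the right. Rows are grouped by role (red lines) and grey cells are genes with no listed contig, as for all axonemal dyneins in rat. Kif1b in BAT (99125 reads) and Myo3a in BAT and cardiomyocytes (34668 and 53180 reads) stand out.

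The 3 kinesin-1 heavy chains, which carry mitochondria, vesicles and RNA granules, were listed everywhere at very different counts. Kif5b, the form made in most tissues, had 90 reads in mouse dendrites, 268 in mouse somas, 252 in rat dendrites, 50 in rat somas, 8245 in BAT and 3749 in cardiomyocytes. Kif5c, a neuronal form, had 84, 48, 159, 128, 5623 and 2 reads in the same order. Kif5a, the other neuronal form, had 4, 28, 42, 335, 42 and 8 reads. Kif5a was thus highest in rat somas, and Kif5b and Kif5c in BAT. Nearly all of the Kif5c reads of BAT came from intron 16 (5611 reads). Intron 10 of Kif5b was covered over 677 of its 678 nt at the same position in all 4 mouse lists, with 74, 232, 3127 and 2138 reads in dendrites, somas, BAT and cardiomyocytes. This contig overlaps an exon of an annotated Kif5b transcript of the retained-intron class. In BAT the contigs of Kif5b spread over 16 introns.

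Among kinesin-2 genes, whose motors carry cargo within cilia and along dendrites, Kif3a was in every list. It had 59 reads in mouse dendrites, 6 in mouse somas, 623 in rat dendrites, 418 in rat somas, 2318 in BAT and 1230 in cardiomyocytes. Kifap3, its accessory subunit, had 968, 458, 2516 and 22 reads in mouse dendrites, mouse somas, BAT and cardiomyocytes and was in no rat list. Its partner Kif3b had 52 reads in mouse dendrites and 2 in cardiomyocytes, and Kif3c had 109 in mouse dendrites and 4 in BAT. Kif17, the dendritic motor of NMDA receptor vesicles, was in mouse somas (82 reads) and BAT (12 reads) and in neither dendrite list.

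Kinesin-3 genes held the largest single value of the motors. Kif1b had 438 reads in mouse dendrites, 777 in mouse somas, 159 in rat dendrites, 1378 in rat somas, 99125 in BAT and 19 in cardiomyocytes. Of the BAT reads, 95.9% were in intron 16, which was listed in no other mouse list, so that Kif1b held 15206 reads per kb of contig there against 898 for Kif5b. Kif16b, which moves early endosomes, had 1063, 42, 286, 968, 6117 and 3112 reads. Kif13a, a motor of recycling endosomes, had 649, 3, 108, 4, 94 and 10 reads, so that both dendrite lists were above both soma lists. Kif13b had 330, 18, 0, 346, 40 and 669 reads, and Kif1c had 2, 0, 16, 0, 1609 and 1246.

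Mitotic kinesins were listed more widely in mouse dendrites, with 11 of 13 annotated genes, than in mouse somas, with 4, and the lists of all motor genes (72 and 53) and of all genes (43.9% and 30.1% of those annotated) also went from more to fewer. Kif23, which bundles microtubules of the midzone in cytokinesis, had 1196 reads in mouse dendrites, 343 in rat dendrites, 1422 in BAT and 17 in cardiomyocytes, and was in neither soma list. Kif20a, another cytokinesis kinesin, had 1791 reads in rat dendrites and 271 in rat somas, and no more than 6 in any mouse list. Kif14 led in BAT with 9227 reads, of which 7839 were in intron 13, and had 932 in cardiomyocytes, 14 in mouse dendrites and 4 in mouse somas. Kif11, the motor that pushes spindle poles apart, had 186, 18, 0, 24, 418 and 303 reads in the order of the lists above. Kif4 (339 and 119 reads) and Kif2c (286 and 74 reads) were in mouse dendrites and BAT only. Kif15 had 81, 4, 415 and 435 reads in mouse dendrites, rat dendrites, BAT and cardiomyocytes and was in neither soma list, Kif18b had 137, 4 and 20 in mouse dendrites, BAT and cardiomyocytes, and Kif18a, Kif20b and Kif22 had at most 198 in any list.

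Markers of dividing cells moved the same way in mouse. Of Mki67, Top2a, Cenpe, Cenpf and Anln, 4 were listed in mouse dendrites (1665 reads, 539 scaled reads) and 2 in mouse somas (40 reads, 21.6 scaled reads), with Mki67 listed nowhere. In rat dendrites 1 of the 5 was listed, with 2 reads, and in rat somas none. Astrocyte markers stood at 2983 reads (4 of 5 listed, 966 scaled reads) in mouse dendrites and 264 reads (3 of 5, 142 scaled reads) in mouse somas, with Gfap at 5 and 0 reads. In rat they stood at 69 reads (1 of 5, 68.5 scaled reads) in dendrites and 252 reads (2 of 5, 120 scaled reads) in somas. Microglia markers went the other way in mouse, at 70.3 scaled reads in dendrites and 130 in somas, and oligodendrocyte markers stood at 1.94 and 1.08. Over all genes compared, 52.5% were at least 4-fold higher in mouse dendrites, so a higher value there is not particular to these markers. Whether other cells contributed to the mitotic kinesin reads of the dendrite list was not tested. Kifc1 had 502 reads in mouse somas, 15 in rat dendrites, 115 in rat somas and 2 in BAT. Its near-identical copy Kifc5b had 78 reads in mouse dendrites and 2 in cardiomyocytes, and since reads of such copies are hard to place, the values of both are uncertain.

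Among the other kinesins, Kif21a, a slow motor that limits microtubule growth, had the most reads in mouse somas and cardiomyocytes. It had 12 reads in mouse dendrites, 2084 in mouse somas, 116 in BAT and 8729 in cardiomyocytes, and was not listed in rat. The reads of mouse somas and cardiomyocytes shared their leading intron, intron 11, with 785 and 4249 reads. Kif24, which acts at the centriole, had 1000 reads in mouse dendrites, 2 in mouse somas, 15 in BAT and 385 in cardiomyocytes. Kif26b had 220, 44, 994, 0, 93 and 125 reads across the 6 lists, and Kif2a, a microtubule depolymerase, had 62, 136, 659 and 1834 in the mouse lists.

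Of cytoplasmic dynein 1, all 5 genes with a Dync symbol were listed in mouse dendrites and in BAT, while the light chain genes, whose symbols begin with Dynl, are outside the rule. The heavy chain Dync1h1, the motor subunit, had 727 reads in mouse dendrites, 1183 in mouse somas, 13 in rat dendrites, 455 in rat somas, 585 in BAT and 469 in cardiomyocytes. In mouse somas and cardiomyocytes, 962 and 456 of these reads lay in intron 64, at contigs that begin at the same base and overlap an exon of a Dync1h1 transcript annotated as a retained intron. The intermediate chain Dync1i2, which binds dynactin, had 179, 850, 52, 2457, 197 and 0 reads and was highest in rat somas. Dync1i1, the neuronal intermediate chain, had 101, 50, 24, 0, 3024 and 0 reads. The light intermediate chains Dync1li1 and Dync1li2 had 1293 and 1016 reads in BAT and 188 and 170 in mouse dendrites, which in scaled reads is 72.4 and 56.9 against 60.9 and 55.1, and fewer in each other list. The heavy chain of dynein 2, Dync2h1, had 1546, 52, 1681, 1864, 2327 and 47 reads, with 1 low value among the 4 neuronal lists. Its light intermediate chain Dync2li1 had 72 reads in mouse somas and 50 in BAT.

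Axonemal dynein heavy chains, whose proteins are known from motile cilia, were listed in each mouse list and in neither rat list. Of 15 annotated genes, 10 were listed in mouse dendrites (5063 reads), 6 in mouse somas (1740), 10 in BAT (27749) and 7 in cardiomyocytes (4798). Whether the rat annotation holds these genes was not analysed here. Dnahc8 had contigs in 35 different introns over the mouse lists, the most of all motor genes, with 1251, 1453, 932 and 2 reads. Dnahc7b had 104, 99, 22006 and 2565 reads, and 99.8% of those in BAT lay in intron 60, the contig shown above. Dnahc7a and Dnahc7c are near-identical copies of it, so its values are uncertain. Dnahc5 had 1015, 0, 772 and 435 reads and Dnahc6 had 836, 20, 1720 and 1495.

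Dynactin was the least read group in mouse neurons, with 25 reads in dendrites and 37 in somas over its 6 annotated genes. Dctn4 had 28 reads in mouse somas, 751 in BAT and 317 in cardiomyocytes. Dctn3 had 3 reads in mouse dendrites, 227 in rat dendrites and 134 in cardiomyocytes, Dctn5 had 20, 9, 305 and 6 in mouse dendrites, mouse somas, rat somas and BAT, and Dctn6 had 2, 84 and 95 in mouse dendrites, rat somas and BAT. Dctn2 had 115 and 8 reads in rat dendrites and somas. Dctn1, the large subunit that binds microtubules, had 2 reads in rat somas and none elsewhere.

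Class I myosins, single-headed motors that tie membranes to actin, held 5068 reads in mouse dendrites and 136 in mouse somas. Myo1a, a myosin of intestinal microvilli, had 2388 reads in mouse dendrites, 5 in mouse somas, 70 in BAT and 146 in cardiomyocytes, with 2250 of the dendrite reads in intron 3. Myo1d had 1648, 2, 14, 10, 2566 and 680 reads in the order of the lists above. Myo1e had 176, 100, 594, 8, 4006 and 512.

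Among class V myosins, Myo5a, which brings endoplasmic reticulum into dendritic spines, had 1294 reads in mouse dendrites, 159 in mouse somas, 61 in rat dendrites, 728 in rat somas, 1684 in BAT and 692 in cardiomyocytes. The compartment with more reads thus differed between the species. Myo5b, a motor of recycling endosomes, had 690, 8 and 3223 reads in mouse dendrites, mouse somas and BAT, and Myo5c at most 30 in any list. Myo6, the myosin that moves toward the minus ends of actin, had 57, 559 and 3502 reads in mouse dendrites, mouse somas and BAT. Myo10, a filopodial motor, had 449, 58, 858 and 487 reads in the mouse lists and was not listed in rat.

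The last role, unconventional myosins outside classes I and V, includes Myo6 and Myo10. It held 70.8% of the motor reads in cardiomyocytes, 45.3% in mouse somas and 31.2% in mouse dendrites, and was the role with the most reads in each of these lists. Myo9a had 713 reads in mouse dendrites, 2890 in mouse somas, 274 in rat dendrites, 1032 in rat somas, 11679 in BAT and 16507 in cardiomyocytes, with contigs in 25 different introns over the mouse lists. Myo3a had 2022, 809, 34668 and 53180 reads in the mouse lists. Myo16, a myosin of the developing brain, had 505, 2734, 13610 and 271 reads there, and 4 in rat dendrites. Myo18b, known from striated muscle, had 5183, 40, 266 and 1744 reads, and 5112 of those in mouse dendrites lay in intron 18 (chr5:113261879-113263003, a contig of 1125 nt). Myo3b had 1166, 42, 1516, 0, 1124 and 13 reads over the 6 lists, and Myo19, a mitochondrial myosin, had 60, 8, 825 and 2836 in the mouse lists.

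Single introns decided many of these sums. The 3 motor introns with the most reads held 26.6% of the motor reads in mouse dendrites, 19.7% in mouse somas, 48.5% in rat dendrites, 32.9% in rat somas, 54.5% in BAT and 57.7% in cardiomyocytes. Intron 30 of Myo3a had 1481, 467, 25841 and 52869 reads in mouse dendrites, mouse somas, BAT and cardiomyocytes, which is 4.46%, 2.86%, 9.87% and 49.6% of the motor reads. Without it, the motor share of the listed reads became 1.03%, 0.856%, 1.32% and 0.441%. Without intron 16 of Kif1b the share in BAT was 0.934%. The share of motor reads in cardiomyocytes thus rested on the Myo3a intron that matches the mitochondrial genome, and the part of mitochondrial RNA in its reads was not tested.

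**Figure D3:**
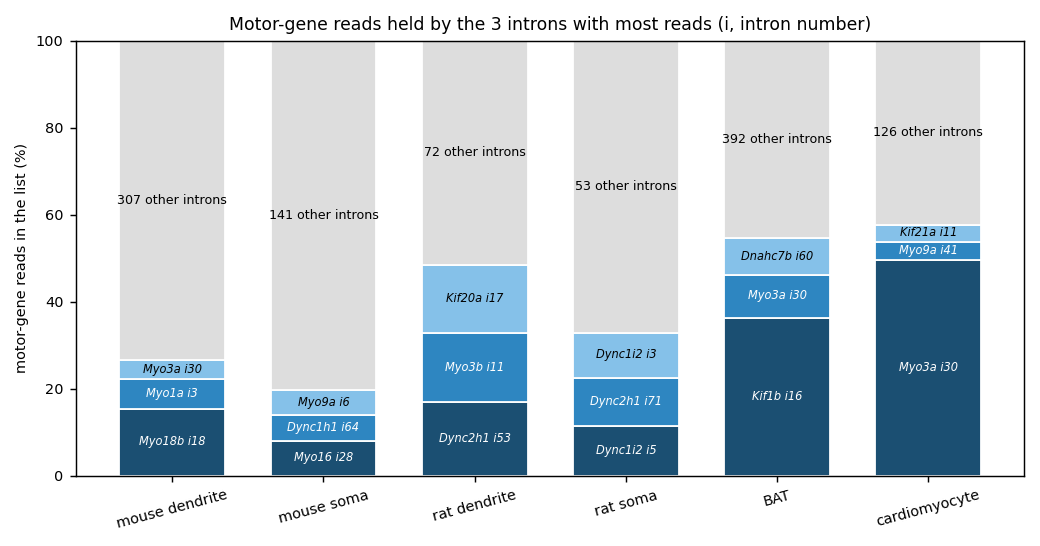
Share of the motor-gene reads of each list (%) held by the 3 introns with the most reads (blue, darkest for the first) and by all other listed motor introns (grey). Kif1b intron 16 held 36.3% in BAT and Myo3a intron 30 held 49.6% in cardiomyocytes.

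In rat dendrites the leading introns were intron 53 of Dync2h1 (1609 reads), intron 11 of Myo3b (1516 reads) and intron 17 of Kif20a (1495 reads). In rat somas they were intron 5 of Dync1i2 (1279 reads), intron 71 of Dync2h1 (1259 reads) and intron 3 of Dync1i2 (1169 reads). Dync2h1 was thus high in both compartments through different introns. In mouse somas the leading introns were intron 28 of Myo16 (1307 reads), intron 64 of Dync1h1 (962 reads) and intron 6 of Myo9a (947 reads).

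Of the introns of listed motor transcripts, 310 of 2540 held a contig in mouse dendrites (12.2%, interval 11 to 13.5), 144 of 1871 in mouse somas (7.70%, 6.57 to 8.99), 395 of 2633 in BAT (15%, 13.7 to 16.4) and 129 of 1903 in cardiomyocytes (6.78%, 5.73 to 8.0). Over the introns of all listed transcripts the shares were 15.8%, 11.9%, 21.7% and 14.6%, above the interval in each list. A transcript enters this count only with at least 1 listed intron, which raises the share where transcripts have few introns, and motor genes have many. Listed motor introns were long, with medians of 3911, 4176, 3129 and 3735 nt against 1173, 1448, 1124 and 1445 nt for the other introns of the same transcripts.

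**Figure D4:**
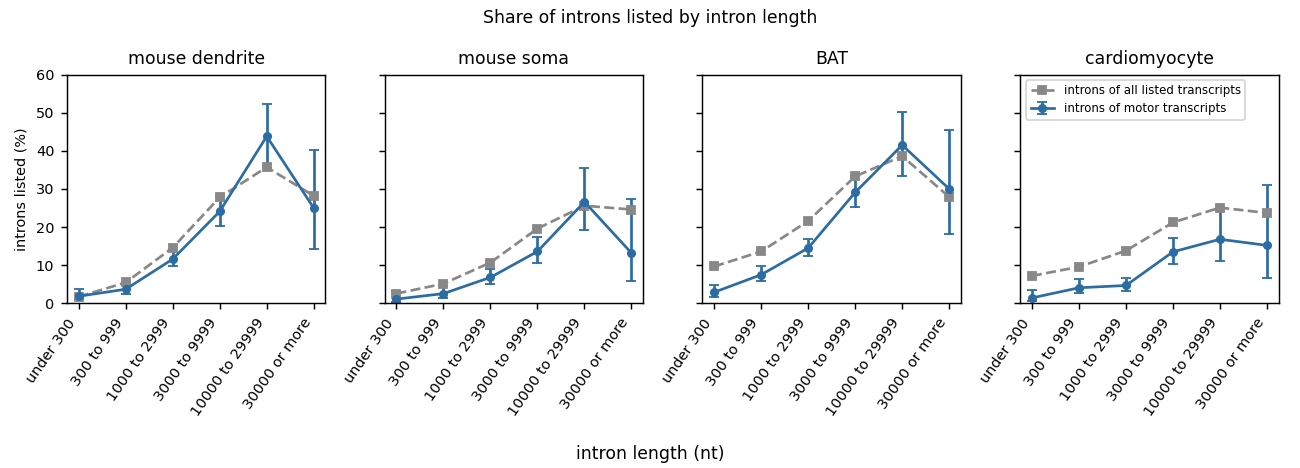
Share of introns with a listed contig (%) by intron length (nt) in the 4 mouse lists, for motor transcripts (blue, with 95% Wilson intervals) and all listed transcripts (grey). In cardiomyocytes the motor introns lie below all introns in each length class, and in the other lists they lie above in the class of 10000 to 29999 nt, with the share of all introns within the interval.

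The share listed went up with intron length to the class of 10000 to 29999 nt and was lower in longer introns, for motor genes and for all genes in each mouse list. In mouse dendrites it was 1.86% of motor introns under 300 nt, 11.6% of those of 1000 to 2999 nt and 43.8% (interval 35.6 to 52.4) of those of 10000 to 29999 nt, where all introns stood at 35.7%. In cardiomyocytes the motor introns of 1000 to 2999 nt stood at 4.68% (3.30 to 6.60) and all introns at 13.8%. In transcripts with at least 5 introns, 56.8% of the listed motor introns of mouse dendrites lay in the 5′ part (interval 51.2 to 62.2), beside 57.8% over all genes and 50.6% of all introns of the motor transcripts. The values were 50.0% in mouse somas, 50.9% in BAT and 57.4% in cardiomyocytes, with intervals that include the share of their introns, and 53.8%, 53.1% and 51.0% over all genes.

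Motor contigs were about as long as other contigs. The medians were 243 nt in mouse dendrites, 300 nt in mouse somas, 286 nt in rat dendrites, 275 nt in rat somas, 250 nt in BAT and 257 nt in cardiomyocytes, beside 256, 277, 278, 303, 273 and 282 nt over all contigs. Contigs covered at least 90% of the intron in 6 motor introns of mouse dendrites (1.94%, interval 0.890 to 4.16), 3 of mouse somas (2.08%, 0.711 to 5.95), 26 of BAT (6.58%, 4.53 to 9.47) and 9 of cardiomyocytes (6.98%, 3.71 to 12.7). Over all listed introns the shares were 1.19%, 2.80%, 11.9% and 11.2%. The genes with several such introns in BAT were Kif5b with 8, Kif3a with 6 and Dync1h1 with 6. Among the 26 introns of BAT were intron 32 of Dync2h1 (960 of 961 nt, 1263 reads) and intron 8 of Kif5b (1241 of 1242 nt, 829 reads). An exon of some other annotated transcript lay under 8 motor contigs of mouse dendrites (2.07%), 6 of mouse somas (3.61%), 21 of BAT (3.98%) and 10 of cardiomyocytes (6.90%), beside 5.04%, 9.59%, 7.51% and 11.4% of all contigs.

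Dendrites and somas of mouse differed in which motor genes held the reads. Among 63 motor genes with at least 32 reads in the pair of lists, 37 were at least 4-fold higher in dendrites and 12 in somas, in scaled reads. Over all 6786 genes compared, 52.5% were at least 4-fold higher in dendrites and 22.8% in somas. Genes absent from 1 list were set to a floor of 3 reads there, and their ratio is a lower bound. The median log2 ratio of dendrites over somas was 3.38 for motor genes and 2.51 for all genes, with such genes at their bound.

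Among the motor genes listed in both lists, those furthest to the dendrite side were Myo1d, Kif24 and Myo1a. Myo1d had 1648 and 2 reads (495-fold, exact interval 137 to 4094) and Kif24 had 1000 and 2 reads (301-fold, 83.0 to 2485). Myo1a had 2388 and 5 reads (287-fold, 123 to 885). Kif23 and Dnahc5, not listed in somas, were at least 240-fold and 203-fold higher in dendrites. Myo18b was 77.9-fold higher (57.1 to 109), Dync2h1 17.9-fold, Kif16b 15.2-fold and Myo5a 4.89-fold (4.15 to 5.81). Furthest to the soma side were Kif21a, with 12 reads in dendrites and 2084 in somas (289-fold, 165 to 560), Kifc1, with 502 reads in somas and none in dendrites, and Kif17, at least 45.5-fold higher. With the reads of its near-identical copy Kifc5b added, Kifc1 was 10.7-fold higher in somas (8.42 to 13.8). Myo6 was 16.3-fold higher in somas (12.4 to 21.8), Myo16 9.01-fold, Dync1i2 7.90-fold (6.72 to 9.33) and Myo9a 6.74-fold. Kif5b was 4.95-fold higher in somas (3.89 to 6.36), and its dendrite over soma ratio was 0.281 when scaled to library totals and 1.18 with only soma contigs of at most 400 nt. That setting drops the 677 nt contig of intron 10 from somas and keeps the same contig in dendrites, so a move toward dendrites follows from how it is made. Dync1h1 and Kif1b were 2.71-fold and 2.95-fold higher in somas, and Kif5c was near even, with a dendrite over soma ratio of 1.05 (0.729 to 1.53).

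**Figure D5:**
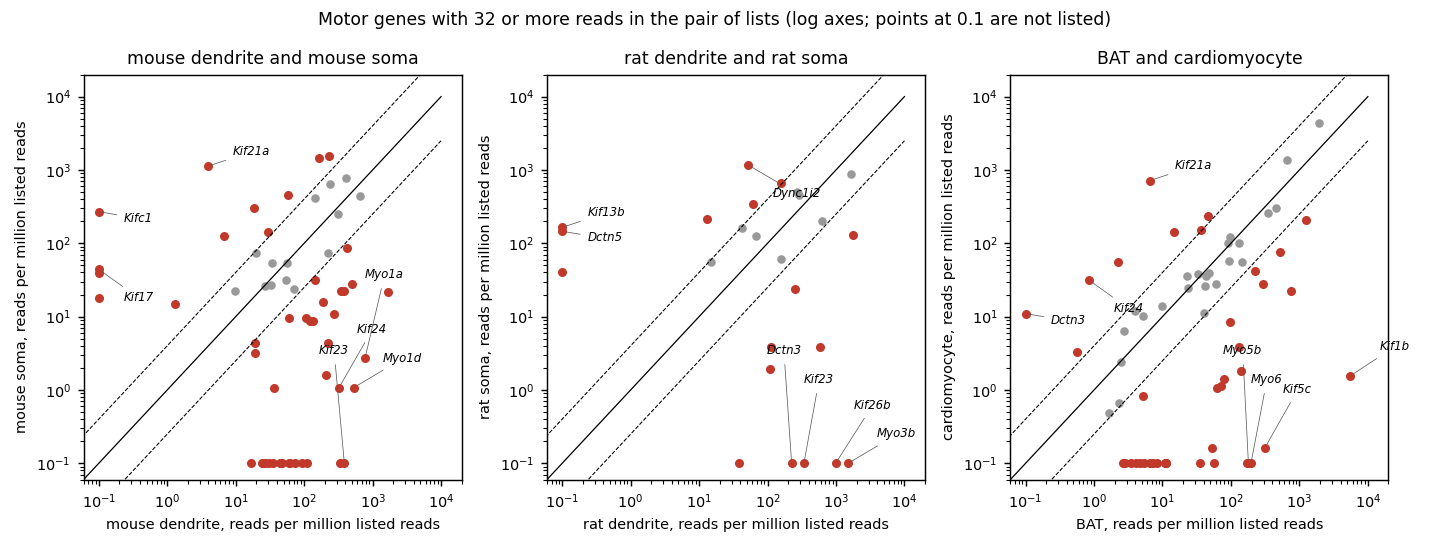
Scaled reads (per 1000000 listed reads) of motor genes in 3 pairs of lists on log axes, with each point a gene with at least 32 reads in the pair. The solid line is equality, the dashed lines are 4-fold, red points lie past 4-fold, and points at 0.1 are genes not listed in that list. Kif21a lies on the soma side and on the cardiomyocyte side, and Kif1b on the BAT side.

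In rat, 25 motor genes had enough reads, and 10 were at least 4-fold higher in dendrites and 7 in somas. Over all 3377 rat genes compared the shares were 47.7% and 33.6%, and the median log2 ratio was 0.91 for motor genes and 1.51 for all genes. On the dendrite side, Myo3b (1516 reads), Kif26b (994 reads) and Kif23 (343 reads) were not listed in somas, and were at least 1051-fold, 689-fold and 238-fold higher. Kif20a, with 1791 and 271 reads, was 13.7-fold higher in dendrites (12.1 to 15.7). On the soma side, Kif13b (346 reads) and Dctn5 (305 reads) were not listed in dendrites and were at least 55.5-fold and 48.9-fold higher, and Dync1i2, with 52 and 2457 reads, was 22.7-fold higher (17.3 to 30.5). Dync1h1 was 16.8-fold higher in somas (9.75 to 31.9), Myo5a 5.74-fold and Kif1b 4.17-fold (3.54 to 4.94). With only soma contigs of at most 400 nt, the dendrite over soma ratio of Dync1i2 was 3.56 and that of Kif1b 6.12. This setting drops long contigs from somas and not from dendrites, where the 1 contig of Dync1i2 is itself 434 nt long, so these ratios do not compare like with like.

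Of 20 motor genes with enough reads in both species, 5 were past 4-fold in the same direction and 3 in opposite directions, which is 25% and 15%, beside 30.3% and 24.3% over all genes. Kif13a, Kif23, Myo3b and Myo7b were on the dendrite side in both species, and Dync1i2 on the soma side. Kif13a was 130-fold higher in mouse dendrites (44.3 to 632) and 56.1-fold higher in rat dendrites (21.3 to 210). Kif13b, Kif5b and Myo5a went opposite ways. The soma side of Kif5b in mouse and of Dync1i2 in rat was lost under the one-sided setting of soma contigs of at most 400 nt (ratios of 1.18 and 3.56), and Kif5b was short of 4-fold when scaled to library totals. Counting presence alone, 9 motor genes were in both dendrite lists and neither soma list (Dctn3, Dync1li1, Kif15, Kif18a, Kif1c, Kif20b, Kif23, Myo1f and Myo7b), and none was in both soma lists and neither dendrite list. Of the 9, only Kif23 and Myo7b had at least 32 reads in both dendrite lists, and Kif18a, Kif1c and Kif20b had at most 16 in either. The 9 are 29.0% of the motor genes in both dendrite lists, beside 21.1% for all genes, while 6.20% of all genes in both soma lists were in neither of the dendrite lists, which are the longer lists. The dendrite lists shared 31 motor genes, 43.1% of those in mouse and 93.9% of those in rat, beside 32.1% and 61.6% for all genes by symbol. The soma lists shared 19, which is 35.8% and 79.2%, beside 30.1% and 52.3%.

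BAT and cardiomyocytes, from mice of different strain and age, were set side by side in the same way. Of 64 motor genes, 32 were at least 4-fold higher in BAT and 8 in cardiomyocytes, beside 55.7% and 23.0% of all 8158 genes compared. The median log2 ratio of BAT over cardiomyocytes was 2.14 for motor genes and 3.00 for all genes. Kif1b, with 99125 and 19 reads, was 3564-fold higher in BAT (2282 to 5920), and Kif5c, with 5623 and 2 reads, 1921-fold (531 to 15865). Myo6, with 3502 reads and none in cardiomyocytes, was at least 798-fold higher, Myo5b at least 734-fold and Dync1i1 at least 689-fold. Dync2h1 was 33.8-fold higher and Kif14 6.76-fold (6.32 to 7.24). On the cardiomyocyte side, Kif21a, with 116 and 8729 reads, was 110-fold higher (91.7 to 133), Dctn3, not listed in BAT, at least 65.4-fold, and Kif24, with 15 and 385 reads, 37.6-fold (22.5 to 67.8). Kif13b was 24.5-fold higher, Myo18b 9.60-fold (8.43 to 11), Myo19 5.03-fold and Kif2a 4.07-fold (3.72 to 4.46). The heavy chain Dync1h1 was near even, with a BAT over cardiomyocyte ratio of 0.852 (0.753 to 0.964), and Kif3a stood at 1.29 (1.20 to 1.38).

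Pairs of lists shared a smaller part of their motor introns than of their motor genes. Mouse dendrites and somas shared 44 motor genes, which is 61.1% and 83.0% of each list, and 66 introns, or 21.3% and 45.8%. Over all genes the gene shares were 55.1% and 80.4% and the intron shares 25.9% and 47.8%. BAT and cardiomyocytes shared 49 motor genes, or 64.5% and 92.5%, and 76 introns, or 19.2% and 58.9%, beside 53.2% and 87.7% of genes and 26.1% and 60% of introns over all genes. Rat dendrites and somas shared 18 motor genes, or 54.5% and 75%, and 23 introns, or 30.7% and 41.1%, beside 48.3% and 63.8% of genes and 24.9% and 34.8% of introns over all genes. In the 23 introns shared in rat, 20 of 27 dendrite contigs overlapped a soma contig (74.1%, with 54.0% over all genes), whereas in mouse 33 of 98 did (33.7%, with 34.6%). Of 665 different motor introns in the mouse lists, 441 (66.3%) were in 1 list and 17 (2.56%) in all 4, beside 60.5% in 1 list and 3.70% in all 4 over all introns.

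Among the 17 introns in all mouse lists were introns 8, 9 and 10 of Kif5b, introns 23 and 25 of Kif16b, introns 6, 11 and 16 of Myo9a, intron 24 of Kif21a, intron 36 of Kif1b and intron 1 of Dync1h1. Their order of reads differed by list. Intron 24 of Kif21a had 6, 7, 38 and 2671 reads in mouse dendrites, mouse somas, BAT and cardiomyocytes, and intron 25 of Kif16b had 955, 4, 98 and 408. Intron 1 of Dync1h1 had 144, 160, 13 and 13 reads. Intron 6 of Myo9a had 48, 947, 1166 and 4000 reads.

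Runs of at least 10 adenines on the gene strand within 300 nt downstream were found for 32 of 386 motor contigs in mouse dendrites (8.29%, interval 5.93 to 11.5), 36 of 166 in mouse somas (21.7%, 16.1 to 28.6), 44 of 528 in BAT (8.33%, 6.27 to 11) and 20 of 145 in cardiomyocytes (13.8%, 9.11 to 20.3). Over all contigs the shares were 8.11%, 18.6%, 7.36% and 9.53%. Upstream of the motor contigs such runs were found for 4.66%, 2.41%, 2.27% and 4.14%, beside 2.80%, 2.58%, 2.56% and 2.40% of all contigs, and the interval in mouse dendrites (2.97 to 7.25) lay above the share of all contigs. Runs of thymine were more frequent upstream, at 10.1%, 8.43%, 11.2% and 8.28%, than downstream, at 5.44%, 3.61%, 3.98% and 3.45%, as they were for all contigs, at 12.6%, 11.4%, 8.95% and 7.61% upstream and 4.32%, 4.2%, 4.22% and 4.44% downstream. Where a run of adenines was present downstream, it began within 20 nt of the contig in 18 of 32, 24 of 36, 24 of 44 and 13 of 20 cases (56.2%, 66.7%, 54.5% and 65.0%), beside 55.6%, 73.6%, 55.6% and 65.1% over all contigs. For runs of adenine downstream, the interval of the motor contigs held the share of all contigs in each mouse list.

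Genes that work with the motors were also listed. Of 43 adaptors and regulators, 24 were in mouse dendrites, 21 in mouse somas, 20 in rat dendrites, 16 in rat somas, 30 in BAT and 17 in cardiomyocytes. They held 3542, 10131, 7621, 6511, 4166 and 2162 scaled reads. The leading genes were Hook1, a dynein adaptor (2790 reads, mouse dendrites), Kidins220 (9303 reads, mouse somas), Htt, the huntingtin gene (2658 reads, rat dendrites), Grip1, which links kinesin-1 to AMPA receptors (4938 reads, rat somas), Ppfia2 (34436 reads, BAT) and Spag9, a kinesin-1 and dynein adaptor (14506 reads, cardiomyocytes). Of 19 genes of the microtubule tracks, 5 to 11 were listed, led by Clasp2 in mouse dendrites (2530 reads), rat dendrites (982 reads), rat somas (1540 reads) and cardiomyocytes (32349 reads), and by Dst in mouse somas (3012 reads) and BAT (10602 reads). Of 21 conventional myosins and light chains, 16 were in mouse dendrites, 8 in mouse somas, 5 in rat dendrites, 4 in rat somas, 14 in BAT and 15 in cardiomyocytes. They held 7099 scaled reads in cardiomyocytes and 139 to 887 in the other lists.

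Markers of the labelled cells were listed in part. Of 11 neuronal genes, 9 were in mouse dendrites, 10 in mouse somas, 5 in rat dendrites and 7 in rat somas, with Map2 in no list. They held 2643 scaled reads in mouse dendrites against 11241 in mouse somas, and 1728 in rat dendrites against 8956 in rat somas. In BAT 8 of the 11 were also listed, at 1829 scaled reads, and in cardiomyocytes 4, at 941. In BAT, Pparg (52450 reads) and Ucp1 (6596 reads) were listed, and so were the heart genes Nkx2-5 (26804 reads) and Actn2 (12481 reads). As lists, 7 of 8 brown adipocyte genes stood at 3588 scaled reads in BAT and 6 of 9 cardiomyocyte genes at 3539, against 4 of 8 at 825 and 7 of 9 at 34538 in cardiomyocytes. The brown adipocyte genes also stood at 357 scaled reads in mouse dendrites and 2.16 in mouse somas. In cardiomyocytes, Ryr2 (146224 reads), Ttn (96560 reads) and Tnnt2 (10585 reads) were listed, Nkx2-5 and Pln were not, and Lipe (6564 reads) and Cidea (2600 reads), known from fat, were. The lists hold intronic reads only, so a gene that is not listed may still be expressed.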

How the data were processed

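The deposited counts are raw numbers of reads per intron. The authors trimmed paired reads, aligned them with RUM to mm9 and rn4 (builds also named in the submitters' processing notes), took reads with a single position in introns, left out introns holding a predicted gene or a poly(A) site, joined nearby reads into contigs and pooled each condition. For whole cells the study went on with contigs of at most 400 nt only, whereas the deposited lists also hold longer ones, and all contigs are used here unless stated. Reads were taken once per transcript and intron and summed over a gene, and 186 motor introns with several contigs carried a single count. Starts were shifted by 1 to count from 1. The GENCODE annotation of NCBIM37 held 13086 of the 13156 mouse transcripts listed, among them all 91 motor transcripts. Rat introns have no lengths or sequence here, because no rat genome was used.

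Genes were compared in reads scaled to 1000000 listed reads, at 4-fold, with at least 32 reads in the pair of lists. The step was tested on simulated data. The alternatives were contigs of at most 400 nt in whole cells, introns with at least 32 reads, scaling to the library read totals, a 2-fold limit, no minimum, positions counted once, runs of 8 adenines and windows of 600 nt. Named genes were the 3 with most reads in a list, those listed in all 6 or all mouse lists or in 1 compartment of both species, those past 4-fold, members of the transport, mitotic, dynein, dynactin and myosin V, VI and X groups, hosts of the longest contigs or most introns, and the adaptor and track genes with most reads in a list. The values of 1 motor gene are not reported here, though it is in the counts and sums. The motor genes, gene lists and rules were chosen with earlier results of these data known. Python 3.11.15, pandas 2.3.3, numpy 2.4.6, scipy 1.17.1, pysam 0.24.0, matplotlib 3.10.9 and blastn 2.17.0 (E-value limit 1e-5) were used.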

Additional observations from a re-analysis of the deposited data

Results flagged for a closer look

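The dendrite over soma ratios of 3 motor genes were past 4-fold in opposite directions in mouse and rat, a difference between the species that was not tested, as each list is 1 pooled value. Kif13b had a dendrite over soma ratio of 11 in mouse and was at least 55.5-fold higher in somas in rat. Kif5b had a ratio of 0.202 in mouse and 10.5 in rat, but the mouse ratio was 1.18 with only soma contigs of at most 400 nt and 0.281 when scaled to library totals, so that it was not past 4-fold in either. The first setting drops the leading contig from somas and keeps the same contig in dendrites, which moves the ratio toward dendrites by construction. Myo5a had a ratio of 4.89 in mouse and 0.174 in rat.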

How the results depend on the processing

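No paired analysis was possible because the lists pool the libraries and carry no replicate numbers, and leaving out single libraries was not possible for the same reason. The library totals used here cover the neuronal libraries, so scaling to them was run for the neuronal lists only, and counting a position once changed no count.

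With introns of at least 32 reads, motor genes listed were 29 in mouse somas, 20 in rat dendrites and 35 in cardiomyocytes, and the share of annotated motor genes was 58.5%, 30.9%, 59.6% and 37.2% in mouse dendrites, mouse somas, BAT and cardiomyocytes (all genes 27.5%, 16.3%, 35.4% and 20.5%). The share of their introns was then 5.08%, 3.58%, 6.68% and 3.31% (all introns 7.25%, 5.28%, 10.6% and 8.18%). The median contig was 318, 407, 423, 518, 386 and 391 nt in mouse dendrites, mouse somas, rat dendrites, rat somas, BAT and cardiomyocytes. Shared introns were 16 for mouse dendrites and somas, 32 for dendrites and BAT, 11 for dendrites and cardiomyocytes, 23 for somas and BAT, 12 for somas and cardiomyocytes, 24 for BAT and cardiomyocytes and 8 in rat.

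With contigs of at most 400 nt in whole cells, the share of annotated motor genes was 45.7% in cardiomyocytes (all genes 26.7%), and that of their introns 5.40% in mouse somas, 11.1% in BAT and 5.10% in cardiomyocytes (all introns 8.64%, 15.7% and 10.1%). This setting drops long contigs from somas and not from dendrites, and reads are then scaled to a smaller soma total. Genes that lose soma contigs can move toward dendrites, while genes that keep all of theirs move toward somas. The setting turned 3 dendrite over soma ratios, to 1.18 for Kif5b in mouse and to 3.56 for Dync1i2 and 6.12 for Kif1b in rat. Those of Kif11, Myo10 and Myo19 in mouse fell under 4-fold, from 6.21, 4.65 and 4.51 to 2.97, 2.23 and 2.16. Scaling to library totals moved Kif5b in mouse to 0.281. The other 121 comparisons of a named gene with an alternative kept their side.

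Runs of at least 8 adenines gave 12.2% in mouse dendrites and 31.3% in mouse somas (all contigs 12.5% and 25.2%). With no minimum of reads, 16 of 39 motor genes were at least 4-fold higher in rat dendrites (41.0%), beside 42.4% of all 5712 genes. The next 2 settings were chosen after seeing the data. Without intron 30 of Myo3a, the motor share of listed reads was 1.03%, 0.856%, 1.32% and 0.441% in mouse dendrites, mouse somas, BAT and cardiomyocytes, and without intron 16 of Kif1b it was 0.934% in BAT. The other 44 comparisons of a main value with an alternative, such as the counts of genes past 4-fold in mouse, kept within counting error or within 1.5 times.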
